A study of Homo sapiens with 26 samples.

Results

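NEAT1 and MALAT1 are neighbouring long noncoding RNAs that stay in the nucleus, and NONO, SFPQ, PSPC1, RBM14 and TARDBP (the gene of TDP-43) encode proteins of paraspeckles, the nuclear bodies that NEAT1 builds. These 7 genes were taken by symbol from the deposited tables, and all 7 were present in each of the 3 tables, among 12239 gene symbols in all. Their values were compared in 786-O, an established human clear cell renal carcinoma line, after siRNA knockdown of 5 genes. SART1 acts in the assembly of the tri-snRNP of the spliceosome, and DDX39A and SARNP belong to the mRNA export machinery. FIBP binds acidic fibroblast growth factor, and TMEM259 is also known as membralin.

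All 26 libraries came from this 1 line, in 13 groups of 2 libraries each. Each target had 2 siRNAs, numbered as in the labels: 4 and 6 for SART1, 1 and 4 for DDX39A, 3 and 9 for SARNP, 6 and 7 for FIBP, and 5 and 6 for TMEM259. The control groups received a negative control siRNA, and each of the 3 tables had its own pair of control libraries. SART1 had a table to itself, DDX39A shared one with SARNP, and FIBP shared one with TMEM259. Cells were split 24 h after transfection with DharmaFECT 1 and harvested at 48 h, and poly(A) RNA was sequenced in directional libraries. No source used here says whether the 2 libraries of a group were separate transfections, so p-values measure the spread between libraries, which may be technical.

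Depth was 21710821 to 26128173 gene reads per library for SART1, 9959064 to 18086176 for DDX39A and SARNP, and 8966609 to 17018483 for FIBP and TMEM259. Each of the 10 siRNAs left 8.48% to 48.3% of its target's control level. Among markers of the line, the renal transcription factor gene PAX8 had control means of 1902 to 3025 over the 3 tables. COL1A1, a fibroblast collagen gene, had control means of 55.7 to 93.1. The blood cell markers PTPRC and HBB and the renal carcinoma marker CA9 were also looked for. None of them had a value in the SART1 table or in the DDX39A and SARNP table, so their level there is not known. CDH2, CDH6, VIM, KRT8 and KRT18, also checked as markers of the line, had values in both. All values below are normalized counts, that is, reads divided by a size factor for each library, and changes are differences of log2(value + 1) from the controls of the same table with the standard error (SE) of the limma model. The threshold for a call was 0.05 on p-values adjusted by Benjamini and Hochberg's method over all tested genes of a table.

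NEAT1 is made in a short, polyadenylated form and a long form that starts at the same site. The long form is the architectural RNA of paraspeckles, and NONO, SFPQ and RBM14 are needed to form them. NONO, SFPQ and PSPC1 belong to 1 protein family, DBHS, whose members pair with each other. MALAT1 resides in nuclear speckles. Neither long NEAT1 nor MALAT1 ends in an ordinary poly(A) tail: RNase P cuts off a tRNA-like piece, and the new end folds into a triple helix of U-rich and A-rich stretches.

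The 3 ends are shown because the libraries were poly(A) selected, so how an RNA ends bears on how it is captured. In GENCODE release 29 (GRCh38), NEAT1 lies on the plus strand at chr11:65422774-65445540 and MALAT1 at chr11:65497688-65506516, both annotated as lincRNA genes. The files give no coordinates. The first end is the last 60 bases of the short form (chr11:65426454-65426513), with the poly(A) signal AATAAA in capitals. The second is the last 110 bases of the long form (1 exon of 22743 bases, chr11:65445431-65445540). The third is the 110 bases of MALAT1 before the start that RefSeq (GRCh38.p14) gives for mascRNA, the tRNA-like piece (chr11:65506007-65506116). In the last 2, capitals mark the longest stretches that both ends share. DNA letters are given, 5′ to 3′.
NEAT1 short form end: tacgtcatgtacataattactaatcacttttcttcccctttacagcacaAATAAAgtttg
NEAT1 long form end: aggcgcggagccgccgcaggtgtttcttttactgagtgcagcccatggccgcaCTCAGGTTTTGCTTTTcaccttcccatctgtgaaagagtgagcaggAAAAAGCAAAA
MALAT1 end: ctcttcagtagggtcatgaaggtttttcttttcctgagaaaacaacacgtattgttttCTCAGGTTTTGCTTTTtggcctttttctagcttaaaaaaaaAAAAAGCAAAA

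The short form ended at position 3716 of the long form and so shares 16.3% of its length. The U-rich stretch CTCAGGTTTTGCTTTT, of 16 bases, and the A-rich stretch AAAAAGCAAAA, of 11 bases, each occurred 1 time in the NEAT1 long form end and in the MALAT1 end. Searched on the sense strand in the last 110 bases of 201525 annotated transcripts, the first was found in 1 and the second in 99 (0.0491%). Both stretches were picked because these ends share them, so their presence in each end was fixed in advance. The 1 transcript with the first is the long NEAT1 form itself. An annotated MALAT1 transcript has 8708 bases, of which 8355 lie before mascRNA. Its last 110 bases therefore do not reach back to the MALAT1 end shown. For these reasons the search does not test how rare the stretches are. AATAAA was in neither the long NEAT1 end nor the MALAT1 end, while 25.2% of 206435 transcripts held it in their last 60 bases. The longest run of A was 13 bases in the MALAT1 end and 5 in the long NEAT1 end. The tables hold 1 value per gene symbol, so the forms of NEAT1 are not separated, and a change in NEAT1 below may be in either form. MALAT1 also has an antisense partner, TALAM1, which was not analysed here, and no source used here states whether the counting used strand.

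NEAT1 had the largest change of the 7 genes with both siRNAs of SART1 and DDX39A, with SARNP siRNA 9 and with FIBP siRNA 7. With TMEM259 siRNA 5 its change was also the largest, though near that of PSPC1, and both are given below. With FIBP siRNA 6 the changes of NEAT1 (0.21) and MALAT1 (-0.21) were of like size and are not ranked. NEAT1 was lower with 7 of the 10 siRNAs, higher with 1 and not called with 2. Across all genes, 19.4% to 62.9% were called with a single siRNA. Both siRNAs of a target lowered it only for SART1 and DDX39A. For SARNP, FIBP and TMEM259 the 2 siRNAs of a target differed from each other. In RNA from whole cultures, fewer cells holding an RNA and less RNA per cell cannot be told apart.

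In the SART1 table, NEAT1 was 2747 and 2802 in the control libraries, 1309.5 and 1327 with siRNA 4, and 958 and 979 with siRNA 6. All 4 knockdown libraries lay below both controls, where 78.6% (siRNA 4) and 81.5% (siRNA 6) of all genes did not overlap the controls. The change was -1.07 (SE 0.05, adjusted p = 6.1e-15, limma) with siRNA 4 and -1.52 (SE 0.05, adjusted p = 1.2e-17) with siRNA 6, the 26th lowest change of 11823 genes. The levels left were 47.5% and 34.9% of the controls, and siRNA 6 differed from siRNA 4 by -0.45 (SE 0.05, adjusted p = 5.1e-08), where 38.5% of all genes differed. SART1 mRNA itself stood at 33.3% of control with siRNA 4 and at 26.8% with siRNA 6.

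In the DDX39A and SARNP table, NEAT1 was 803 and 843 in the controls. With DDX39A siRNA 1 it was 452 and 456, and with DDX39A siRNA 4 it was 479.7 and 444, all below both controls. Of all genes, 63.5% and 73.7% did not overlap the controls with these siRNAs. The changes were -0.86 (SE 0.08, adjusted p = 2.3e-11, limma) and -0.83 (SE 0.08, adjusted p = 1.2e-11), leaving 55.2% and 56.1%. The 2 DDX39A siRNAs did not differ detectably for NEAT1, at 0.02 with a 95% interval from -0.13 to 0.18 (adjusted p = 0.824), where 50.6% of all genes differed.

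The 2 SARNP siRNAs gave different NEAT1 levels. With siRNA 3, NEAT1 was 757 and 893, 1 library on each side of the controls, and the change was -0.00 (SE 0.08, adjusted p = 0.994, limma). With siRNA 9 it was 287 and 269, far below both controls, a change of -1.56 (SE 0.08, adjusted p = 9.5e-20) that left 33.8%. The difference of siRNA 9 from siRNA 3 was -1.56 (adjusted p = 5.1e-20), where 64.1% of all genes differed, so the mean over both, -0.78, describes neither siRNA. Libraries did not overlap the controls for 70.2% of all genes with siRNA 3 and 79.1% with siRNA 9. SARNP mRNA stood at 13.5% of control with siRNA 3 and at 8.48% with siRNA 9. Whether the remaining SARNP had a part in the NEAT1 difference was not tested.

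In the FIBP and TMEM259 table, NEAT1 was 1664 and 1621 in the controls. FIBP siRNA 6 gave 1913 and 1887, above both controls, and FIBP siRNA 7 gave 1135 and 1194, below both. The changes were 0.21 (SE 0.05, adjusted p = 1.6e-03, limma) and -0.50 (SE 0.05, adjusted p = 7.7e-11), and they differed from each other by -0.71 (SE 0.05, adjusted p = 1.4e-15), where 35.7% of all genes differed. Libraries did not overlap the controls for 59.8% of all genes with siRNA 6 and 64.8% with siRNA 7. FIBP mRNA stood at 11% of control with siRNA 6 and at 17.1% with siRNA 7. The mean over both FIBP siRNAs was -0.14 (adjusted p = 0.0117, 27.5% of all genes called), and it was no longer called without either control library of this table (-0.12 without control replicate 1 and -0.16 without replicate 2).

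TMEM259 siRNA 5 gave NEAT1 values of 1325 and 1359, below both controls of 1664 and 1621, and siRNA 6 gave 1579 and 1715, 1 on each side. The changes were -0.29 (SE 0.05, adjusted p = 2.3e-05, limma) and 0.00 (SE 0.05, adjusted p = 0.979), and siRNA 6 lay 0.29 above siRNA 5 (adjusted p = 1.1e-05), where 32.1% of all genes differed. Libraries did not overlap the controls for 60.5% of all genes with siRNA 5 and 58.5% with siRNA 6. TMEM259 mRNA stood at 30.3% of control with siRNA 5 and at 48.3% with siRNA 6. The mean over both was -0.14 (adjusted p = 0.0187, a call that 1856 of 11768 genes had), and its call was lost without control replicate 1 (-0.13), without control replicate 2 (-0.16) and without TMEM259 siRNA 6 replicate 1 (-0.12).

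**Figure D1:**
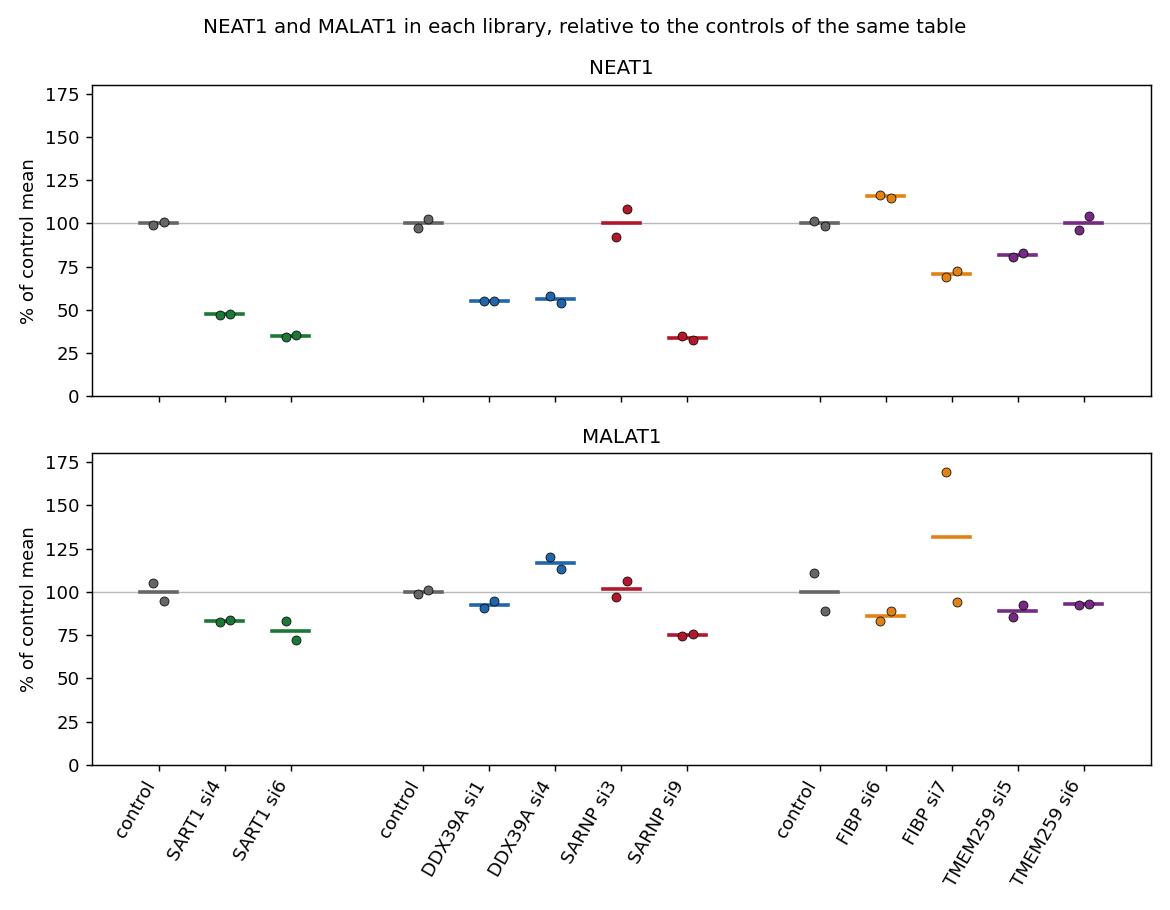
NEAT1 (top) and MALAT1 (bottom) in each library as a percentage of the mean of the 2 control libraries of its table. Points are libraries and bars are group means. NEAT1 lay at 33.8% to 56.1% with both SART1 siRNAs, both DDX39A siRNAs and SARNP siRNA 9, while MALAT1 group means ranged from 75.1% to 132%, the last with its 2 libraries far apart.

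MALAT1 was also lower in the SART1 knockdown, by smaller amounts than NEAT1. Its control values were 2684 and 2419.9, siRNA 4 gave 2101 and 2132, and siRNA 6 gave 2119 and 1844. All 4 knockdown libraries lay below both controls, where 78.6% (siRNA 4) and 81.5% (siRNA 6) of all genes did not overlap the controls. The changes were -0.27 (SE 0.06, adjusted p = 2.2e-04, limma) and -0.37 (SE 0.06, adjusted p = 3.8e-06). The 2 siRNAs did not differ detectably, at -0.10 with a 95% interval from -0.21 to 0.02 (adjusted p = 0.167).

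In the DDX39A and SARNP table, MALAT1 was 2738 and 2793 in the controls. DDX39A siRNA 1 gave 2512 and 2612, a change of -0.11 that was not called (adjusted p = 0.0743, limma) except with quantile normalization (-0.13), and siRNA 4 gave 3329 and 3128, a rise of 0.22 (SE 0.05, adjusted p = 2e-04). The 2 DDX39A siRNAs thus lay on opposite sides of the controls for MALAT1, 0.33 apart (adjusted p = 3.1e-07), while both lowered NEAT1. SARNP siRNA 3 gave 2688 and 2933, on either side of the controls, and siRNA 9 gave 2061 and 2094, below both. The latter was a fall of 0.41 on the log2 scale (adjusted p = 2.6e-09), and siRNA 3 was not called at 0.02 (adjusted p = 0.747). The siRNA of SARNP that lowered NEAT1 was therefore also the one that lowered MALAT1.

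In the FIBP and TMEM259 table, the 2 control libraries themselves differed for MALAT1, at 1694 and 1362. FIBP siRNA 6 gave 1270.1 and 1362, TMEM259 siRNA 5 gave 1306 and 1416, and TMEM259 siRNA 6 gave 1415 and 1422. None of these was called, with changes of -0.21, -0.16 and -0.10 (SE 0.11 each, limma). They depended on the controls: without control replicate 1 they were -0.05, -0.00 and 0.06, and without control replicate 2 they were -0.37, -0.32 and -0.26, none called. The first was called when either library of FIBP siRNA 7 was left out (-0.21), and the second when only the TMEM259 and control groups were fitted (-0.16, adjusted p = 0.0309). FIBP siRNA 7 gave 2584 in replicate 1 and 1440.2 in replicate 2, and was called at 0.34 (adjusted p = 0.0119). That call rested on replicate 1, the shallowest library of the table: without it the change was -0.08, and without the control replicate 2 it was 0.19, neither called. Without the other siRNA 7 library, it was 0.77, and with DESeq2 it was not called (0.40, adjusted p = 0.355). In that replicate 1, reads without a gene were 8.57% of assigned reads, the highest of a range from 7.82% to 8.57% in this table, and their part in the MALAT1 value was not tested.

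The ratio of NEAT1 to MALAT1 values within a library, which is not per length, was compared over the 4 knockdown libraries of a target and the 2 controls. In the SART1 table it was 1.02 and 1.16 in the controls and 0.452 to 0.623 in the 4 knockdown libraries. In the DDX39A knockdown it was 0.142 to 0.18, against 0.293 and 0.302 in the controls. All knockdown libraries of both targets lay below their controls. The log2 differences were -0.98 for SART1 and -0.90 for DDX39A, each with p = 0.133 in a two-sided exact permutation test, the smallest p that 2 against 4 libraries allow. The test takes the libraries of both siRNAs of a target as 1 group, so it ignores any difference between the siRNAs.

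For SARNP, the NEAT1 to MALAT1 ratio was 0.281 and 0.305 with siRNA 3, around the control values, and 0.139 and 0.128 with siRNA 9. For FIBP it was 1.51 and 1.39 with siRNA 6, above both controls of 0.982 and 1.19, and 0.439 and 0.829 with siRNA 7, below both. The 4 TMEM259 libraries gave 0.96 to 1.21 and overlapped the controls. The differences over both siRNAs were -0.59, -0.21 and -0.01, with p = 0.4, 0.933 and 0.933 in the same exact permutation test. Without FIBP siRNA 7 replicate 1 the FIBP difference turned to 0.15, and without FIBP siRNA 6 replicate 1 it was -0.44.

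**Figure D2:**
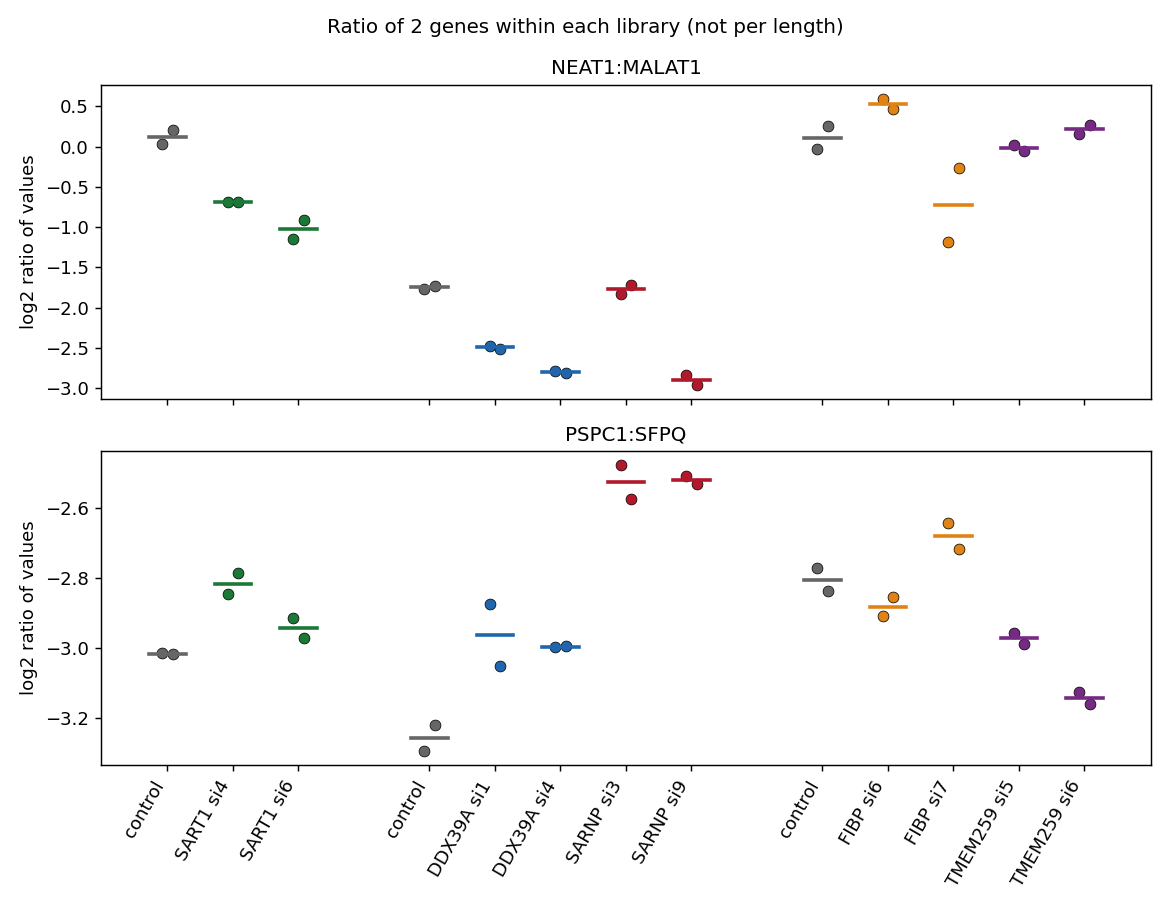
log2 ratio of NEAT1 to MALAT1 values (top) and of PSPC1 to SFPQ values (bottom) within each library. Points are libraries and bars are group means, and ratios are of normalized counts, not per length. The upper ratio is below the controls in all SART1 and DDX39A libraries and the lower ratio is above the controls in all SARNP libraries.

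The level of NEAT1 in control cells also differed between the 3 tables. Of each 1000000 gene reads, NEAT1 had 119.2 and 121 in the SART1 controls, 63.2 and 66.5 in the DDX39A and SARNP controls, and 134 and 130 in the FIBP and TMEM259 controls. MALAT1 was at 116.4 and 104.5, 215.5 and 220.4, and 136.5 and 109.2 in the same order, so the order of the tables was not the same for the 2 RNAs. The tables were normalized apart and these levels were not tested against each other.

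Among the 5 protein genes, PSPC1 moved most. Its changes ranged from -0.22 to 0.68 over the 10 siRNAs, and it was higher with 5 and lower with 2. The other 4 genes had changes of -0.36 to 0.17 and were called with 2 to 5 siRNAs each. By target, the members called by both siRNAs with 1 sign were NEAT1, MALAT1, SFPQ and PSPC1 for SART1, where 42.9% of all genes were so called. They were NEAT1 and RBM14 for DDX39A (15% of all genes), PSPC1 and RBM14 for SARNP (14.3%), none for FIBP (9.08%) and PSPC1 for TMEM259 (4.97%).

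PSPC1 (paraspeckle component 1) is the third protein of the DBHS family. In the DDX39A and SARNP table it was 745 and 789 in the controls. SARNP siRNA 3 gave 1183 and 1204 and SARNP siRNA 9 gave 1221 and 1239, all well above both controls. With these siRNAs, 70.2% and 79.1% of all genes did not overlap the controls. The rises were 0.64 (SE 0.06, adjusted p = 1.4e-11, limma) and 0.68 (SE 0.06, adjusted p = 8.9e-13), to 156% and 160% of control. Unlike NEAT1, PSPC1 did not differ detectably between the 2 SARNP siRNAs, at 0.04 with a 95% interval from -0.07 to 0.16 (adjusted p = 0.528).

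DDX39A siRNA 1 gave PSPC1 values of 905 and 969.8, a rise of 0.29 (SE 0.06, adjusted p = 1.4e-04, limma), and siRNA 4 gave 745 and 754, which overlapped the controls. The 2 DDX39A siRNAs differed by -0.32 (adjusted p = 1.4e-05). In the SART1 table, PSPC1 was 1712 and 1718 in the controls, 2094 and 2128 with siRNA 4, and 1929.7 and 2042.5 with siRNA 6. All 4 knockdown libraries were higher, with changes of 0.30 (adjusted p = 3.8e-06) and 0.21 (adjusted p = 2.4e-04). With these 2 siRNAs, 78.6% and 81.5% of all genes did not overlap the controls.

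With TMEM259, PSPC1 was lower: it was 929 and 973 in the controls, 791 and 837 with TMEM259 siRNA 5, and 831 and 867 with siRNA 6. All 4 lay below both controls, with changes of -0.22 (SE 0.06, adjusted p = 3.8e-03, limma) and -0.16 (SE 0.06, adjusted p = 0.0428). With siRNA 5 and siRNA 6, 60.5% and 58.5% of all genes did not overlap the controls. The call with siRNA 5 was lost without control replicate 1 (-0.19) or siRNA 5 replicate 2 (-0.18). The call with siRNA 6 was lost without any 1 of the 4 libraries compared (-0.20 to -0.13) with DESeq2 (-0.16, adjusted p = 0.16) and with quantile normalization (-0.16, adjusted p = 0.0568). FIBP siRNA 6 gave 943 and 945, between the controls, and siRNA 7 gave 1007 and 1069, neither called.

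SFPQ, the DBHS protein that NEAT1 holds in paraspeckles, was 13849 and 13913 in the SART1 controls, 14463 and 15313 with SART1 siRNA 4, and 15154 and 15419.9 with siRNA 6. It was called higher at 0.10 (adjusted p = 0.0105, limma) and 0.14 (adjusted p = 6.6e-04), but quantile normalization gave 0.03 and -0.03, so its direction there depended on the scaling. Leaving out control replicate 1 (0.10, adjusted p = 0.0557) or siRNA 4 replicate 1 (0.06) ended the siRNA 4 call as well. In the DDX39A and SARNP table SFPQ was 7314 and 7374 in the controls, and 5968 and 6015 with DDX39A siRNA 4, both lower. This fall of 0.29 on the log2 scale (adjusted p = 2.5e-07) was not seen with DDX39A siRNA 1 (7124 and 7512, not called), and the 2 siRNAs differed by -0.29 (adjusted p = 3.4e-07).

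SFPQ was not called with either SARNP siRNA (6714 and 7049 with siRNA 3, and 6950.1 and 7173 with siRNA 9). In the FIBP and TMEM259 table the controls were 6646 and 6655, and TMEM259 siRNA 6 gave 7439 and 7573, a rise of 0.17 (SE 0.04, adjusted p = 2.6e-04, limma). TMEM259 siRNA 5 gave 6284 and 6510, below both controls and not called, so the 2 TMEM259 siRNAs differed by 0.23 (adjusted p = 1.1e-06). Neither FIBP siRNA was called for SFPQ.

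NONO, the partner of SFPQ in many complexes, varied least of the 7 genes, with changes from -0.13 to 0.09. In the SART1 table it was 11142 and 11297 in the controls, 10218 and 10923 with siRNA 4, and 11131 and 11499.7 with siRNA 6. The siRNA 4 change of -0.09 (adjusted p = 0.0355, limma) was lost without control replicate 1 (-0.10), control replicate 2 (-0.08) or siRNA 4 replicate 2 (-0.04), and with DESeq2 (-0.09, adjusted p = 0.0729). The siRNA 6 value was 0.01, not called, and -0.14 and called with quantile normalization. DDX39A siRNA 4 gave 5044 and 5301 against 5629 and 5712, a change of -0.13 (adjusted p = 8.5e-03) that was lost without control replicate 1 (-0.12) or siRNA 4 replicate 1 (-0.10).

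NONO was not called with the other 8 siRNAs. All 4 libraries of the TMEM259 knockdown held higher values (5243 to 5382) than the 2 controls (4964 and 5079), with changes of 0.07 and 0.09 that were not called (adjusted p = 0.172 and 0.0717, limma), the first of them called with quantile normalization (0.11). As given above, 60.5% and 58.5% of all genes did not overlap the controls with these siRNAs.

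The log2 ratio of PSPC1 to SFPQ values was -3.29 and -3.22 in the controls of the DDX39A and SARNP table, and -2.57 to -2.48 in the 4 SARNP libraries. The difference was 0.73 for SARNP, 0.28 for DDX39A and 0.14 for SART1, each with all 4 knockdown libraries above the controls. It was -0.25 for TMEM259, with all 4 below, and 0.02 for FIBP, with overlap. The exact permutation test gave p = 0.133 for these 4 and 0.933 for FIBP. The NONO to SFPQ ratio was lower in all 4 SART1 libraries, by -0.16 (p = 0.133, exact permutation test), and overlapped the controls for the other 4 targets.

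RBM14 encodes an RNA-binding protein needed to form paraspeckles, and its gene lies on the same chromosome arm as NEAT1. It was 1073 and 1117 in the controls of the DDX39A and SARNP table, 916 and 1019 with DDX39A siRNA 1, and 848 and 852 with siRNA 4. It was 929 and 934 with SARNP siRNA 3, and 964 and 1018 with siRNA 9. All 8 knockdown libraries lay below both controls, which are the same libraries for DDX39A and SARNP. With DDX39A siRNA 1 and siRNA 4, 63.5% and 73.7% of all genes did not overlap the controls. The shares were 70.2% and 79.1% with SARNP siRNA 3 and siRNA 9. The RBM14 changes were -0.18 (adjusted p = 0.0166, limma) and -0.36 (adjusted p = 2.9e-06) for DDX39A. For SARNP they were -0.23 (adjusted p = 1.6e-03, limma) and -0.14 (adjusted p = 0.0364).

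The weaker of these RBM14 calls depended on single libraries. That of DDX39A siRNA 1 was lost without control replicate 1 (-0.15) or its own replicate 2 (-0.10), and that of SARNP siRNA 9 without control replicate 1 (-0.12), control replicate 2 (-0.17) or its own replicate 2 (-0.10). Both were lost with DESeq2 (adjusted p = 0.0866 and 0.122), and that of SARNP siRNA 9 with quantile normalization (-0.14, adjusted p = 0.0516). RBM14 was not called with either SART1 siRNA (1549 to 1631 against 1642 and 1656), except with siRNA 4 under quantile normalization (-0.12). RBM14 shares exons with the readthrough gene RBM14-RBM4, and reads that fit 2 genes were kept apart by the authors' counting, so its level is uncertain.

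In the FIBP and TMEM259 table, RBM14 was 1047 and 1158 in the controls. FIBP siRNA 6 gave 987 and 1015 and siRNA 7 gave 1171 and 1235, on opposite sides of the controls. Neither was called, and they differed by 0.26 (adjusted p = 2e-04, limma). Without control replicate 2 the siRNA 6 change was -0.21 and called, and without control replicate 1 the siRNA 7 change was 0.20 and called. TMEM259 siRNA 6 gave 1220.4 and 1233, called at 0.15 (adjusted p = 0.0454), and TMEM259 siRNA 5 gave 1008 and 1053, not called. The siRNA 6 call was lost without control replicate 2 (0.08), without either of its own libraries (0.15 and 0.16), with DESeq2 (adjusted p = 0.145), with quantile normalization (adjusted p = 0.0815) and with the replicate number as a block (0.15, adjusted p = 0.059).

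TARDBP encodes TDP-43, an RNA-binding protein that is found in paraspeckles and binds NEAT1. In the DDX39A and SARNP table it was 4404 and 4626 in the controls, and 3695 and 3736 with DDX39A siRNA 4, a fall of 0.28 on the log2 scale (adjusted p = 1.6e-06, limma). DDX39A siRNA 1 gave 4290.4 and 4469, not called, and the 2 siRNAs differed by -0.24 (adjusted p = 2.4e-05). SARNP siRNA 3 gave 4001 and 4220.4, called at -0.14 (adjusted p = 0.0125). That call was lost without control replicate 2 (-0.10) or siRNA 3 replicate 1 (-0.10), and SARNP siRNA 9 was not called.

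TARDBP was 4464 and 4501 in the controls of the FIBP and TMEM259 table. TMEM259 siRNA 5 gave 4019.5 and 4127, called at -0.14 (adjusted p = 6.1e-03, limma), and siRNA 6 gave 4751 and 4776, above both controls and not called. The 2 TMEM259 siRNAs differed by 0.23 (adjusted p = 7.6e-06). The siRNA 5 call was lost without control replicate 1 (-0.13) or its own replicate 1 (-0.12), and with quantile normalization (-0.10). TARDBP was not called with either FIBP siRNA or either SART1 siRNA, and for SART1 siRNA 6 the 0.01 became -0.13, a called change, with quantile normalization.

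DDX39A siRNA 4 had the most members called of the 10 siRNAs. It lowered NEAT1, NONO, SFPQ, RBM14 and TARDBP and raised MALAT1, 6 of 7, where 49% of all genes were called. DDX39A siRNA 1 called 3 of 7 against 33.2%, SART1 siRNA 4 called 5 of 7 against 57.7% and SART1 siRNA 6 called 4 of 7 against 62.9%. SARNP siRNA 3 and siRNA 9 called 3 and 4 of 7, against 41.3% and 58.4%. FIBP siRNA 6 and siRNA 7 called 1 and 2, against 22.6% and 34.1%, and TMEM259 siRNA 5 and siRNA 6 called 3 each, against 22.8% and 19.4%.

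Between targets of the same table, the mean over both siRNAs differed for 3 of the 7 genes in each pair. PSPC1, MALAT1 and SFPQ differed between SARNP and DDX39A, where 53.6% of all genes did, and PSPC1, NONO and MALAT1 differed between TMEM259 and FIBP, where 37.1% did.

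**Figure D3:**
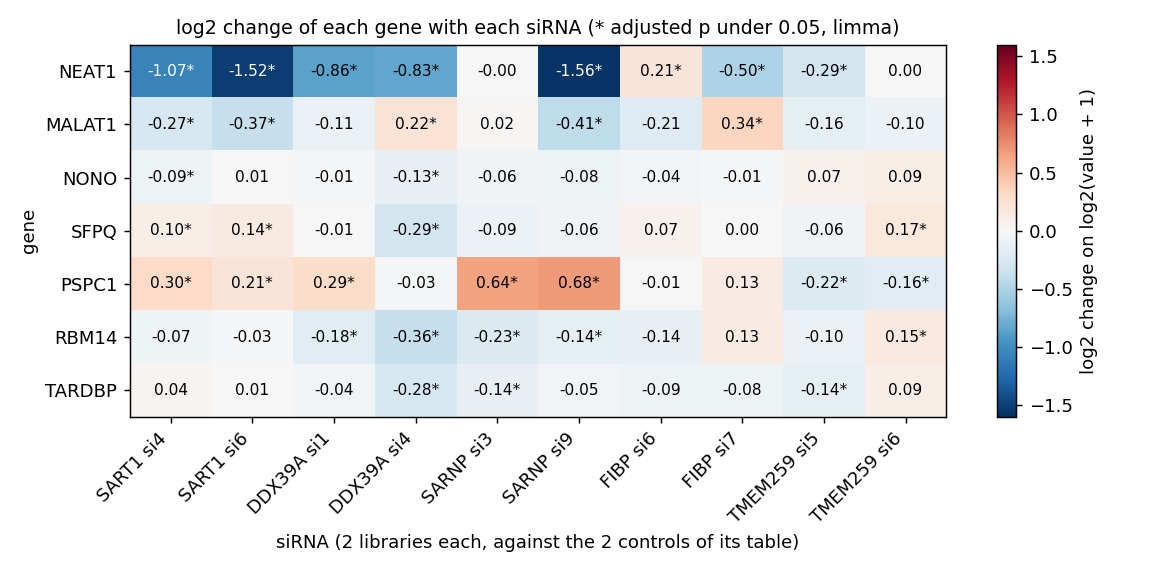
log2 change of the 7 genes (rows) with each of the 10 siRNAs (columns), each from 2 libraries against the 2 controls of its table, with an asterisk where the limma adjusted p was below 0.05. The NEAT1 row holds the lowest values, -1.56 with SARNP siRNA 9 and -1.52 with SART1 siRNA 6, and the PSPC1 row the highest, 0.64 and 0.68 with the SARNP siRNAs.

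**Figure D4:**
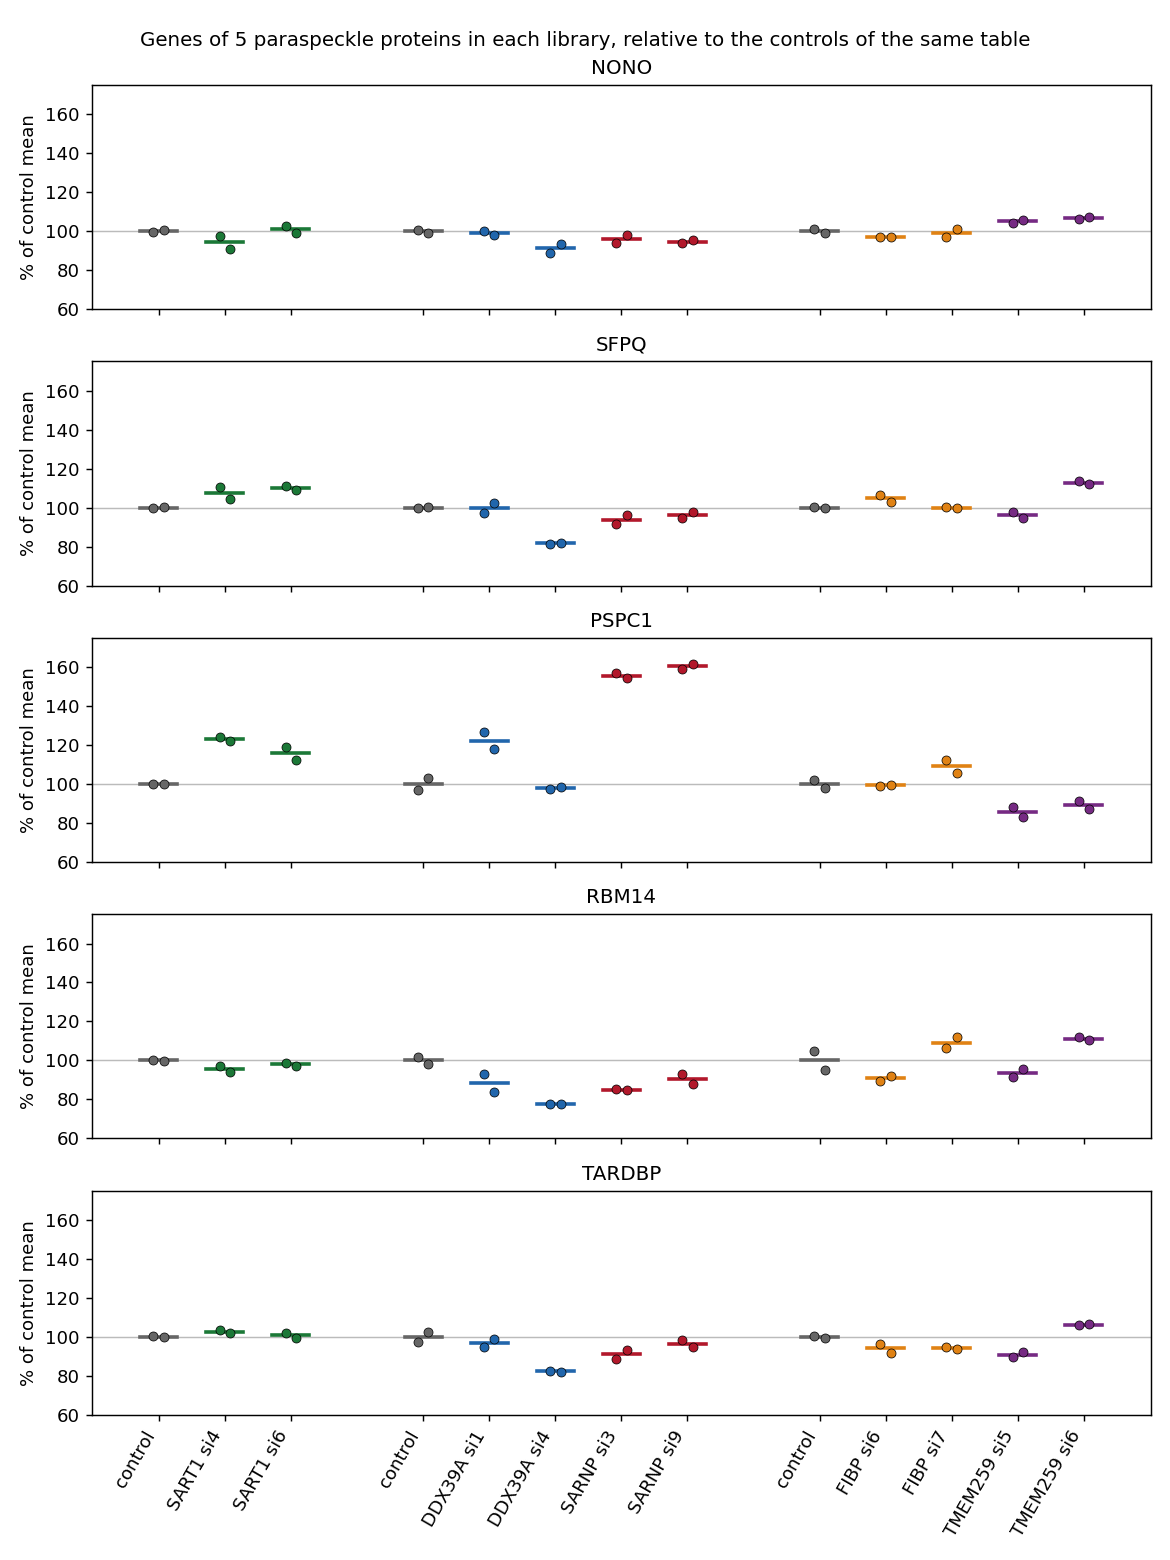
NONO, SFPQ, PSPC1, RBM14 and TARDBP in each library as a percentage of the control mean of its table. Points are libraries, bars are group means, and the axis starts at 60%. PSPC1 reached 156% and 160% with the SARNP siRNAs, and RBM14 fell to 77.6% with DDX39A siRNA 4.

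Of 37 other genes whose proteins have been placed in paraspeckles, 34 were measured. Both SART1 siRNAs raised 9 and lowered 9 of them, and both SARNP siRNAs raised 6 and lowered 6. Those of DDX39A raised 4 and lowered 3, those of FIBP raised 2 and lowered 2, and those of TMEM259 lowered 1. The median change over the list lay between -0.07 and 0.05 with each siRNA, beside medians of -0.01 to 0.00 over all genes. In all genes, both siRNAs raised 22.9% and lowered 20% for SART1, 7.17% and 7.15% for SARNP, 8.67% and 6.37% for DDX39A, 4.68% and 4.39% for FIBP, and 2.56% and 2.41% for TMEM259. The DDX39A count of 7 became 3 without control replicate 2 and 4 without DDX39A siRNA 1 replicate 1, and the SARNP count of 12 became 7 without SARNP siRNA 3 replicate 1 and 7 with DESeq2.

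HNRNPH3, an RNA-binding protein needed to form paraspeckles, was lower with both siRNAs of SART1, DDX39A, SARNP and FIBP. In the SART1 table it was 9623 and 9739 in the controls and 7803 to 8314 in the 4 knockdown libraries. In the DDX39A and SARNP table it was 4189 and 4291 in the controls, 3287 to 3703 in the DDX39A libraries and 3220.1 to 3452 in the SARNP libraries. In the FIBP and TMEM259 table it was 4057 and 4065 in the controls and 3170.4 to 3415 in the FIBP libraries, all below. Its changes ranged from -0.39 with SARNP siRNA 9 (adjusted p = 5.9e-10, limma) to -0.22 with DDX39A siRNA 4 (adjusted p = 6.3e-05). TMEM259 siRNA 5 also lowered it, to 3469 and 3636 (-0.19, adjusted p = 2.4e-04), and siRNA 6 did not (4215 and 4226, 0.06, adjusted p = 0.359). Targets that share a table share its 2 controls. With the siRNAs of SART1, DDX39A, SARNP and FIBP, 59.8% to 81.5% of all genes did not overlap the controls. Both siRNAs of a target lowered 20% of all genes for SART1, 6.37% for DDX39A, 7.15% for SARNP and 4.39% for FIBP. The share of all genes lowered by both siRNAs of all 4 targets was not counted.

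Beside HNRNPH3, the genes of this list with the largest changes called by both siRNAs are given by target. Both SART1 siRNAs raised SRSF10, a splicing regulator (0.46 and 0.64), NUDT21, a subunit of the cleavage factor that sets poly(A) site choice on NEAT1 (0.52 and 0.39), and FAM98A (0.54 and 0.33), and lowered TAF15, an RNA-binding protein (-0.41 and -0.60). Both DDX39A siRNAs raised SMARCB1, a subunit of the SWI/SNF chromatin remodeller (0.19 and 0.20), UBAP2L (0.17 and 0.17) and the cold-inducible CIRBP (0.17 and 0.19). Both SARNP siRNAs raised SMARCB1 (0.22 and 0.24) and AKAP8L (0.19 and 0.41) and lowered FIGN (-0.22 and -0.20). Both FIBP siRNAs raised RBM7, of the nuclear exosome targeting complex (0.31 and 0.34), and FAM98A (0.23 and 0.34), and lowered RBMX (-0.10 and -0.10). HNRNPM, a splicing regulator, was lower with both TMEM259 siRNAs, but by unequal amounts (-0.12 with siRNA 5 and -0.94 with siRNA 6, adjusted p = 8.5e-24 for the latter, limma). This was the 1 gene of the list called by both TMEM259 siRNAs, and the count was 0 with quantile normalization and without either control library or TMEM259 siRNA 5 replicate 1.

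**Figure D5:**
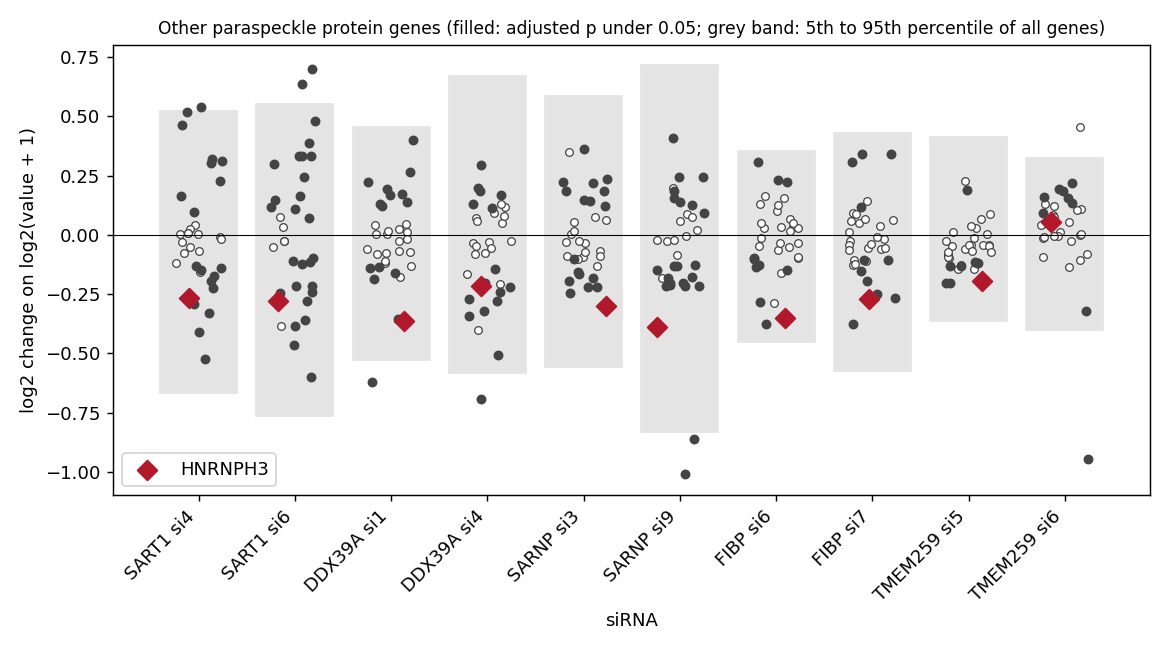
log2 change of 34 other paraspeckle protein genes with each siRNA. Filled circles were called by limma, open circles were not, the grey band spans the 5th to 95th percentile of all genes tested, and the diamond is HNRNPH3. HNRNPH3 lies between -0.39 and -0.19 with 9 siRNAs and at 0.06 with TMEM259 siRNA 6.

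Cleavage and polyadenylation factors act on NEAT1, since poly(A) site use ends its short form. Of 18 such genes, both SART1 siRNAs raised 6 and lowered 3, both SARNP siRNAs raised 4, both DDX39A siRNAs raised 1 (CPSF1), and FIBP and TMEM259 had none called by both. The shares of all genes were 22.9% and 20% for SART1, so its counts lay near the background, and 7.17% higher for SARNP and 8.67% higher for DDX39A. The 4 raised in the SARNP knockdown were CPSF6, CSTF2T, CSTF3 and PCF11. Of 10 measured genes for MALAT1 end processing and triple helix binding, both SART1 siRNAs raised 4 and lowered 1, and both DDX39A siRNAs lowered 1, the latter near the 6.37% of all genes. METTL16, which binds the MALAT1 triple helix, rose by 0.48 and 0.49 with the SART1 siRNAs, and ELAC2, which trims the end of tRNA-like pieces, changed by -0.17 and -0.25 with the DDX39A siRNAs.

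A list of other long noncoding RNAs was counted in the same way, and NEAT1 and MALAT1 were not ranked against it. Both DDX39A siRNAs lowered 8 of 30 measured and raised 0, beside 6.37% and 8.67% of all genes, and the 8 included DANCR, SNHG3, NORAD and TUG1. The median change over this list was -0.22 with DDX39A siRNA 1 and -0.19 with siRNA 4, against -0.00 and 0.00 over all genes. Both SART1 siRNAs raised 4 and lowered 7 of 29, among them LUCAT1 and TP53TG1 (lower) and SNHG16 (higher), beside 22.9% and 20% of all genes raised and lowered. For SARNP, 1 rose (ZFAS1) and 1 fell (MIR17HG), for FIBP 1 rose (NORAD) and 1 fell (SNHG7), and for TMEM259 2 fell (SNHG5 and SNHG8). These are counts of 2 or fewer of 30, beside 7.17% and 7.15% of all genes raised and lowered for SARNP, 4.68% and 4.39% for FIBP, and 2.41% lowered for TMEM259. In the SARNP knockdown NEAT1 and MALAT1 were called with siRNA 9 alone.

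FRMD8, just upstream of NEAT1, was not called with any of the 10 siRNAs, and its changes ranged from -0.18 to 0.22. Of 13 measured neighbours at 11q13.1, both siRNAs raised 1 and lowered 2 for SART1, raised 2 for DDX39A, 3 for SARNP, 1 for FIBP and 1 for TMEM259. The shares of all genes were 22.9% raised and 20% lowered for SART1, and 8.67%, 7.17%, 4.68% and 2.56% raised for DDX39A, SARNP, FIBP and TMEM259. SART1 and FIBP, which were knocked down here, lie in the same band.

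Across the 26 libraries, after centring log2 values on each table's mean, the genes most like NEAT1 among 10015 genes were PYGO2 (Pearson r = 0.93), MORN1 (0.92) and CENPI (0.91). INTS1 (0.77) and DDIT4 (0.74) were among the 3 most like MALAT1, and NEAT1 and MALAT1 had r = 0.31 with each other. ARID1A was closest to NONO (0.77), NCL to SFPQ (0.90), EID1 to PSPC1 (0.86), SLC25A5 to RBM14 (0.85) and DCLRE1A to TARDBP (0.87). SFPQ and TARDBP were close to each other (r = 0.85), TARDBP ranking 7 of 10015 for SFPQ. PSPC1 was not close to its family members, with r = 0.25 for SFPQ and -0.26 for NONO. These are descriptions over libraries that share targets, controls and size factors.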

How the data were processed

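Poly(A) RNA of 26 libraries of 786-O cells was analysed from 3 tables. Per the submitters' processing notes, hg19, STAR, Picard, HTSeq and DESeq2 were used, with no versions or roles given; the annotation and strand counted are not given in the sources used here. Each deposited value is a normalized signal for a gene symbol, a gene count that the authors divided by 1 size factor per library. Labels spelled "FIPBkd6" and "SARPN siRNA9" were taken for FIBP and SARNP, and C19orf6 in titles for TMEM259, its name in the samples' other labels. All values (100%) were whole reads within 0.0001 of a read once scaled, and reads were recovered for count tests only. Unassigned rows were kept apart (reads without a gene, 6.25% to 10.1% of assigned reads).

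Genes with a mean of at least 10 were tested (11823, 11673 and 11768 for SART1, DDX39A and SARNP, and FIBP and TMEM259). log2(value + 1) was fitted with limma 3.58.1 in R 4.3.3, 1 model per table with a mean per group, eBayes with trend and two-sided tests. A call by both siRNAs needed the same sign in each. The script was tested on simulated data. Ratios were tested with scipy 1.17.1. Alternatives were a pseudocount of 5, no filter, a mean of at least 50, quantile normalization, a replicate block, leave-one-out, the target's groups alone, edgeR 4.0.16 with TMM and DESeq2 1.42.0; limma called 2282 to 7442 genes per siRNA, edgeR 2452 to 7432 and DESeq2 1246 to 5909, so shares of all genes called would be lower with DESeq2.

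The members and gene lists were chosen with earlier results of these data known. Named besides the members were FRMD8, up to 4 genes per list and target called by both siRNAs, ranked by the smaller of the 2 changes, and the genes of highest r (3 for NEAT1 and MALAT1, 1 for each protein gene, mean of at least 50 in all tables); others are named where a count is small, after their values were seen. Some genes that this rule would name are not reported here.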

Additional observations from a re-analysis of the deposited data

Results flagged for a closer look

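In the pairs of targets that share a table, the mean change over both siRNAs of 1 target was set against that of the other, a test in which the shared controls drop out. Of the 7 genes, 3 differed between SARNP and DDX39A and 3 between TMEM259 and FIBP (limma, Benjamini-Hochberg adjusted), where 53.6% and 37.1% of all genes did. PSPC1 was higher with SARNP than with DDX39A by 0.53 (SE 0.04, adjusted p = 7.2e-14), and all 4 SARNP libraries lay above all 4 DDX39A libraries. The share of all genes with such a separation was not counted. MALAT1 was lower with SARNP than with DDX39A, at -0.25 (SE 0.03, adjusted p = 7e-08), a mean of siRNAs that differed from each other for both targets. SFPQ was higher with SARNP by 0.074 (SE 0.03, adjusted p = 0.0327), with the low values of DDX39A siRNA 4 in the mean.

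PSPC1 was lower with TMEM259 than with FIBP, at -0.25 (SE 0.04, adjusted p = 3.7e-06), and all 4 TMEM259 libraries lay below all 4 FIBP libraries. For this pair too, the share of all genes so separated was not counted. NONO was higher with TMEM259 by 0.11 (SE 0.03, adjusted p = 6.6e-04). MALAT1 was lower with TMEM259, at -0.20 (SE 0.08, adjusted p = 0.0398), with FIBP siRNA 7 replicate 1 (2584 against 1440.2 in replicate 2) in the mean. NEAT1 did not differ detectably in either pair. The difference was 0.06 (95% interval -0.05 to 0.17) for SARNP against DDX39A and -0.00 (-0.07 to 0.07) for TMEM259 against FIBP. For NEAT1 the siRNAs of SARNP, of FIBP and of TMEM259 differed from each other. These means therefore do not show that the targets had like effects.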

How the results depend on the processing

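Of 70 changes (7 genes with 10 siRNAs), all 70 kept direction and call with a pseudocount of 5, with no filter, with a mean of at least 50 and with edgeR. The replicate block ended 1 call, RBM14 with TMEM259 siRNA 6 (0.15, adjusted p = 0.059, limma), and none of the other 69. Over all genes, same-numbered libraries of different groups did not deviate together from their group means (r -0.06 to 0.05). This cannot show whether they were handled together. DESeq2 ended 6 calls, called fewer genes with every siRNA (1246 against 2282 with TMEM259 siRNA 6) and turned the NEAT1 means of FIBP (-0.14) and TMEM259 (-0.14) from called to not called. Quantile normalization reversed 5 SART1 values. They were SFPQ with siRNA 6 (-0.029) and over both siRNAs (-0.00), and NONO with siRNA 6 (-0.14). The others were TARDBP with siRNA 6 (-0.13) and over both (-0.10). Of the 70 changes, this setting ended 5 calls and added 3 with the sign kept, and it reversed 3. Among the reversed changes, SFPQ with SART1 siRNA 6 also lost its call, and NONO and TARDBP with that siRNA became called. Quantile normalization moved no median of all genes by over 0.1. The cause of these changes was not tested.

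Leaving out 1 library at a time, the NEAT1 mean was -0.16 to -0.12 for FIBP and -0.17 to -0.12 for TMEM259, the MALAT1 mean for FIBP was -0.14 to 0.28 and MALAT1 with FIBP siRNA 7 was -0.077 to 0.77. The NEAT1 to MALAT1 ratio differed by -0.96 to -0.84 for DDX39A, -0.79 to -0.38 for SARNP, -0.44 to 0.15 for FIBP and -0.15 to 0.12 for TMEM259. The counts of other paraspeckle genes were 3 to 8 for DDX39A, 7 to 9 for SARNP (7 with DESeq2) and 0 to 1 for TMEM259 (0 with quantile normalization). With 2 libraries a group, and as few as 271 NEAT1 reads in a library, small changes may go undetected.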
